A study of Mus musculus with 4 samples.

Results

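The 44 genes described here encode splicing factors and heterogeneous nuclear ribonucleoproteins (hnRNPs), measured in splenic CD8 T cells of mice given TCDD or its solvent DMSO. They are all genes whose symbol in the array's platform annotation starts with Srsf (9 genes), Hnrnp (18), Snrp (8), Sf3a (3) or Sf3b (6) and that have a probe set matching no other gene, out of 12393 genes with such a probe set. The rule uses symbols and, for the probe set of each gene, the mean over all arrays, but no difference between groups. A probe set is a group of short probes against 1 transcript region. For each gene the brightest probe set was used, by the mean of its 4 arrays. The 44 genes had 115 probe sets in all, and all 44 had a mean log2 value above 6.01, the median over all probe sets, so a filter on dim probe sets at that level would remove none of them. Hnrnpa3, Snrpa, Snrpd1 and Snrpd2 were seen only in probe sets shared with other genes, and Srsf7 had no probe set of its own; these were not analysed here.

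The question, per the study's title, is what TCDD exposure does to purified CD8 T cells. Female C57BL/6 mice aged 8 to 12 weeks were injected intraperitoneally with TCDD at 10 µg/kg or with DMSO, and spleens were taken after 24 h. TCDD is a persistent dioxin that activates the aryl hydrocarbon receptor (AHR), a transcription factor. Per the labels and the design text there were 4 mice to a group, their spleen cells were pooled, CD8 T cells were sorted to a purity above 99%, and their RNA was amplified before it went onto Affymetrix arrays. There are 2 arrays for TCDD and 2 for DMSO, titled with the numbers 1 and 2, and neither the number's meaning nor whether each array had a pool of its own is stated. The p-values therefore reflect array-to-array spread. In the comparison of treatments that spread includes any difference by number and is possibly technical only. In the comparison by number it includes the difference between the treatments. Lower RNA of a gene per cell and fewer cells that express it cannot be told apart in such samples.

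Splicing removes introns from pre-mRNA in the spliceosome, which is built from small nuclear ribonucleoproteins (snRNPs). The Snrp genes encode proteins of these particles, most of them members of the Sm ring that encircles the RNA, while the Sf3a and Sf3b genes encode the subunits of the U2 snRNP that settle on the branch point. SR proteins, encoded by Srsf genes, bind exonic enhancers and promote the use of nearby splice sites, and they are switched by phosphorylation through CLK and SRPK kinases. The hnRNPs coat nascent RNA and often act against SR proteins by silencing exons. In T cells the best known target is the CD45 gene Ptprc, whose variable exons are skipped under the control of hnRNP L and hnRNP LL when naive cells become activated or memory cells.

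The sequences upstream of 4 of these genes are shown because TCDD acts through a receptor with a known DNA core motif, GCGTG, and because these 4 genes had the highest and the lowest difference in each of the 2 comparisons below. The sequences are RefSeq promoters of the mouse assembly GRCm38.p6, the 250 bases before the annotated transcription start, 5′ to 3′ on the gene's strand, and capitals mark GCGTG or, for a match on the other strand, CACGC. Hnrnpa1 lies at chr15:103240147-103240396, Snrpb2 at chr2:143062819-143063068, Srsf6 at chr2:162931258-162931507 and Snrpd3 at chr10:75517792-75518041, all on the plus strand.
Hnrnpa1: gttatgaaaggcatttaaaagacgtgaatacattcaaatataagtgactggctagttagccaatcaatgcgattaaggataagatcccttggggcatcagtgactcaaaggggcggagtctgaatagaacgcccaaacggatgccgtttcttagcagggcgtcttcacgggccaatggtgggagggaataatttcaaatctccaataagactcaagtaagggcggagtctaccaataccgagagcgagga
Snrpb2: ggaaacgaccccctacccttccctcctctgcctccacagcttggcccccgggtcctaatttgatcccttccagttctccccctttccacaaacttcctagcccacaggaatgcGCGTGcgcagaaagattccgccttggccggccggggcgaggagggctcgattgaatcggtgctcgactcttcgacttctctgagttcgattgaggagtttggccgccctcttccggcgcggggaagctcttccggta
Srsf6: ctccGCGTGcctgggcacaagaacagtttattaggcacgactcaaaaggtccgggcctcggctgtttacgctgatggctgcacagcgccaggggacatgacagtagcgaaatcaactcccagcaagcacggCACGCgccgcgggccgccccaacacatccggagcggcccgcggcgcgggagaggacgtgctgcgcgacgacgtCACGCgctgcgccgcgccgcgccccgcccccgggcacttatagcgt
Snrpd3: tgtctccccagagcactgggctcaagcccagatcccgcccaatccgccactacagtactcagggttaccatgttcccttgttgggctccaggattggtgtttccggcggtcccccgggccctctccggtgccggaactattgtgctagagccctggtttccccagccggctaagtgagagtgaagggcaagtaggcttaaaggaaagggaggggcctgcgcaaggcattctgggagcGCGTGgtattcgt

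The Hnrnpa1 sequence held no copy of the motif, the Snrpb2 sequence 1 copy starting 137 bases before the start, and the Snrpd3 sequence 1 copy starting 13 bases before it. Srsf6 held 3 copies, starting 246, 119 and 46 bases before the start, the nearest 2 on the other strand. Over windows of 300 bases (250 before and 50 after a start), 39 of the 44 genes matched the table, with 55 windows. Hnrnpul2, Hnrnpll, Snrpb, Sf3b4 and Sf3b5 did not match. GCGTG on either strand occurred in 35 of the 55 windows (63.6%), against 10639 of 32851 windows of all genes (32.4%). By gene, 25 of 39 (64.1%) had it, against 35.2% of all genes. The median GC content was 60.3% in the windows of the 44 genes, against 52.7% over all windows, so the shares were not taken at equal base composition. By family, the motif was found for 6 of 9 Srsf, 10 of 16 Hnrnp, 5 of 7 Snrp, 2 of 3 Sf3a and 2 of 4 Sf3b genes. A match describes these letters and not a bound site.

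The values are log2 expression values made by the authors with RMA, which puts arrays on a common scale and gives 1 value per probe set, so a difference of 1 is a 2-fold change. Levels are compared only within a gene, since probe sets differ in how strongly they hybridise. Array medians were 5.97 to 6.03. Over all probe sets the arrays that correlated best were TCDD 1 and DMSO 1 (r = 0.9932), while the TCDD arrays had r = 0.9816 with each other and the DMSO arrays r = 0.9853. Of 8 listed CD8 T cell markers 7 were measured and none lay below the median, with list means of 9.23 and 9.70 on the TCDD arrays, against 9.71 and 9.86 on the DMSO arrays. Of 7 B cell markers 6 were measured, with list means of 7.98 and 7.77 on the TCDD arrays, against 7.94 and 7.10 on the DMSO arrays. The defining genes Cd79a and Ms4a1 were below the median, and Cd79b, at 6.22 to 7.09, was above it. The MHC class II genes of that list, H2-Aa, H2-Eb1 and Cd74, were above the median too and higher on both number 1 arrays without overlap. Cd74, the invariant chain, read 9.04 and 8.98 on TCDD 1 and DMSO 1, against 8.06 and 6.98 on TCDD 2 and DMSO 2. Cd4 read 6.80 and 7.23 on the TCDD arrays, against 7.04 and 7.06 on the DMSO arrays. The AHR target Cyp1a1 read 6.13 and 6.25 on the TCDD arrays, against 6.33 and 6.15 on the DMSO arrays, so the groups overlapped. Of the other AHR targets, Cyp1b1 and Ahrr had means below the median. Tiparp read 10.21 and 8.18 on the TCDD arrays, against 9.06 and 7.78 on the DMSO arrays, higher on number 1 in both treatments and with overlapping treatment groups. Here and below, number 1 comes first within a treatment.

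Other lists differed between arrays as well. The 8 early response and heat shock genes averaged 9.67 and 8.88 on the TCDD arrays, against 10.69 and 10.45 on the DMSO arrays. Of these Fos read 10.51 and 10.13 on the TCDD arrays, against 12.00 and 12.03 on the DMSO arrays. Jun and Zfp36 were likewise lower on both TCDD arrays without overlap. Egr1, Nr4a1 and Dusp1 had overlapping groups and, like Jun and Zfp36, were highest on DMSO 1. The heat shock gene Hspa1b read 9.31 and 8.73 on the TCDD arrays, against 9.68 and 11.94 on the DMSO arrays. For it and for Hspa1a, DMSO 2 stood above the rest. The 4 neutrophil markers, 1 of them below the median, averaged 5.73 and 6.10 on the TCDD arrays, against 5.63 and 7.47 on the DMSO arrays, again with DMSO 2 highest. The 3 plasma cell markers averaged 6.75 and 7.01 on the TCDD arrays, against 6.70 and 7.66 on the DMSO arrays. Of these Jchain varied most, at 5.66 and 6.60 on the TCDD arrays, against 5.48 and 8.04 on the DMSO arrays. Over the arrays Xbp1 read 7.63 to 8.01 and Sdc1 6.62 to 6.92. The part of these genes and of the MHC class II genes in the results below was not tested.

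The first comparison was TCDD against DMSO. None of the 44 genes passed the test: 0 were called at an adjusted p of 0.05 (limma, adjusted over 22626 probe sets), and their lowest adjusted p was 0.9973. In the same test 0 of all 22626 probe sets were called, which is 0.0%. Without adjustment, 3 of the 44 genes had a p under 0.05 (6.82%), namely Snrpb2, Hnrnpd and Hnrnpm, all lower with TCDD, against 439 of all probe sets (1.94%) and 3.07% of the genes above the median level. That count depended on single arrays. It changed when some of them were left out, as did the count over all probe sets. The TCDD values both exceeded the DMSO values for 1 of the 44 genes (2.27%, Hnrnpab), against 12.9% of all genes. Both were lower for 6 (13.6%), against 12.0% of all genes. These 6 were Srsf1, Hnrnpd, Hnrnpm, Snrpb2, Snrpg and Sf3a1, and for the other 37 genes the groups overlapped.

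The median difference over the 44 genes was −0.05, with 19 genes above 0 and 25 below, against a median of 0.01 over all genes. By family it was −0.13 for Srsf, −0.022 for Hnrnp, −0.205 for Snrp, −0.105 for Sf3a and 0.055 for Sf3b. The sizes were larger than elsewhere on the array: the median size was 0.18, against 0.11 for genes above the median level and 0.09 for all genes. Their 95% limits were wide as well, reaching in the median 0.55 to either side, against 0.34 over all genes. For 29 of the 44 genes both limits lay within a 2-fold change, and for the other 15 at least 1 limit lay beyond it.

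**Figure D1:**
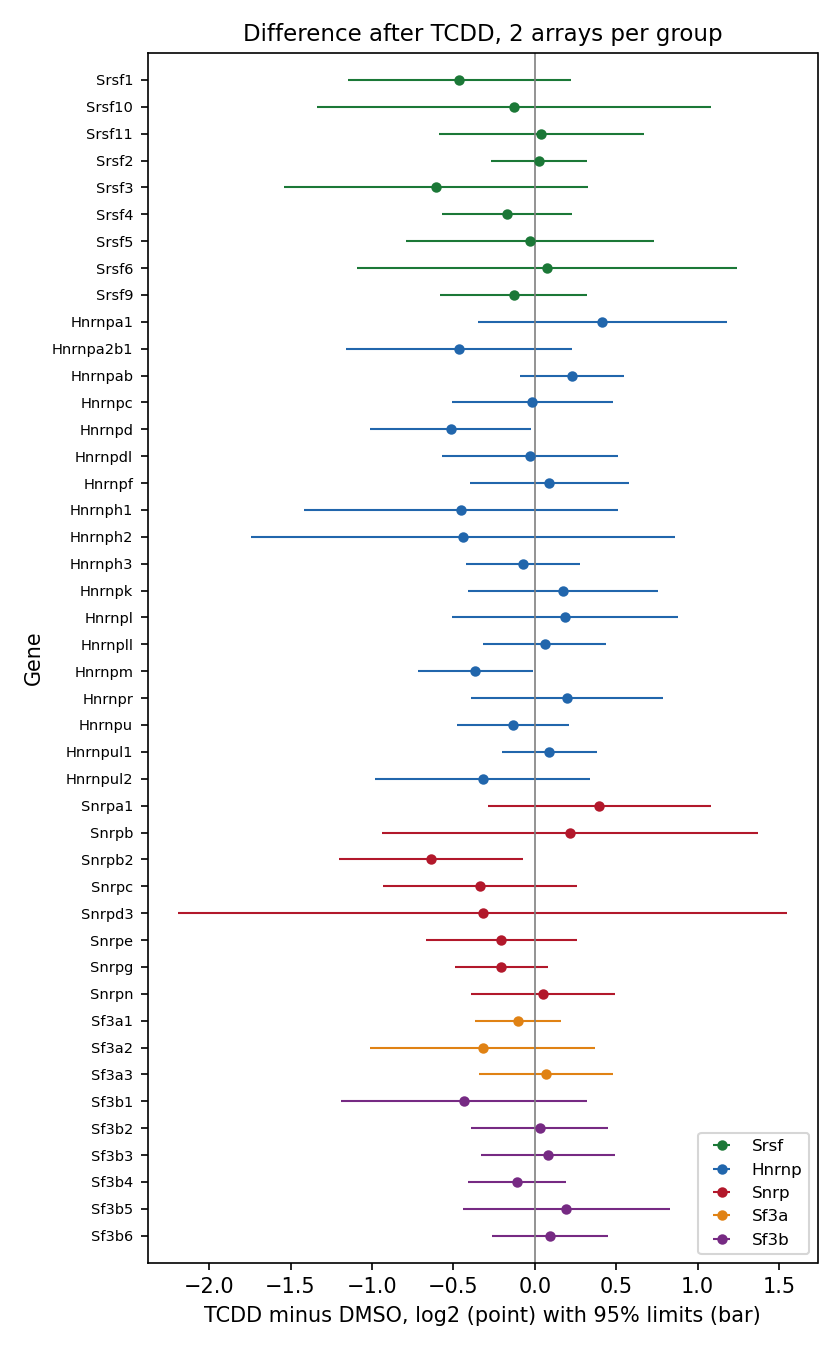
Difference between the TCDD and DMSO means of each of the 44 genes, log2, with 95% limits from the moderated fit (2 arrays per group); colours mark the symbol family. The limits of Snrpb2, Hnrnpd and Hnrnpm end below 0 before adjustment, and those of the other 41 genes include 0.

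Among the SR protein genes, Srsf3, Srsf1 and Srsf4 had the largest differences with TCDD, all below 0 and none past the test. Srsf1 encodes the founding SR protein, used in both constitutive and alternative splicing. It read 9.31 and 9.36 on the TCDD arrays, against 9.43 and 10.17 on the DMSO arrays, so that DMSO 2 stood above the other 3 arrays. The difference was −0.465 (95% limits −1.15 to 0.22), and 2 further probe sets of the gene above the median gave −0.415 and −0.565. Srsf3, an SR protein that also takes part in mRNA export, read 8.78 and 7.78 on the TCDD arrays, against 8.71 and 9.06 on the DMSO arrays. TCDD 2 was the low array, and the groups overlapped, with a difference of −0.605 (−1.54 to 0.33). The other 3 probe sets of Srsf3 above the median gave 0.335, 0.01 and 0.11, so the sign of its difference depended on the probe set. Srsf4 read 9.14 and 8.80 on the TCDD arrays, against 9.20 and 9.08 on the DMSO arrays, a difference of −0.17 (−0.57 to 0.23).

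The other SR protein genes had smaller differences with TCDD in the probe sets used, but not in all of their probe sets. Srsf2, whose protein marks nuclear speckles, had a difference of 0.025 (−0.27 to 0.32), while its other 3 probe sets above the median gave −0.64, 0.05 and −0.275. Srsf6 had 0.075 (−1.09 to 1.24), while its other 2 probe sets gave −0.39 (−0.69 to −0.09) and −0.32. Of these, the sets at −0.64, −0.275 and −0.39 were lower on both TCDD arrays without overlap. Srsf5 had −0.03 (−0.79 to 0.73), Srsf9 −0.13, Srsf10 −0.13 and Srsf11 0.04. Srsf10 varied within a treatment more than between treatments. It read 7.85 and 6.56 on the TCDD arrays, against 7.08 and 7.59 on the DMSO arrays, which places TCDD 1 highest and TCDD 2 lowest.

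In the hnRNP family, 8 genes lay above 0 and 10 below with TCDD. Hnrnpd, also known as AUF1, a protein that binds AU-rich mRNAs and sets their decay, read 8.78 and 8.55 on the TCDD arrays, against 8.96 and 9.40 on the DMSO arrays. The groups did not overlap, and the difference was −0.515 (−1.01 to −0.02, adjusted p = 0.9973). Hnrnpm, which binds GU-rich RNA, was likewise lower on both TCDD arrays, at 8.08 and 7.92, against 8.25 and 8.48 on the DMSO arrays, a difference of −0.365 (−0.72 to −0.01). Hnrnpm is named here although it lies outside the rule for named genes, because it is 1 of the 3 genes at an unadjusted p under 0.05. Both Hnrnpd and Hnrnpm had 1 probe set, so their differences have no second measurement.

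Hnrnpa2b1, an A/B type hnRNP that carries mRNAs in the cytoplasm, read 10.83 and 10.46 on the TCDD arrays, against 10.78 and 11.44 on the DMSO arrays. TCDD 1 and DMSO 1 were close and DMSO 2 was highest, so the groups overlapped, with a difference of −0.465 (−1.16 to 0.23). Its 4 probe sets all lay below 0, from −0.33 to −0.51. Of these, the sets at −0.33 and −0.475 (−0.82 to −0.13) were lower on both TCDD arrays without overlap. Its relative Hnrnpa1, which silences exons, was on the other side at 11.68 and 11.12 on the TCDD arrays, against 11.30 and 10.67 on the DMSO arrays. That difference was 0.415 (−0.35 to 1.18), the highest among the 44 genes, and a second probe set gave 0.395. Both number 1 arrays of Hnrnpa1 read above the number 2 array of the same treatment.

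Hnrnph1, which binds runs of G, read 10.51 and 9.41 on the TCDD arrays, against 10.43 and 10.40 on the DMSO arrays. Only TCDD 2 departed from the other 3 arrays, and the difference of −0.455 (−1.42 to 0.51) was −1.005 without TCDD 1 and 0.095 without TCDD 2. Hnrnpk, a poly-C binding protein, had a difference of 0.175 (−0.41 to 0.76), and its other 3 probe sets gave −0.25, 0.05 and −0.325. Hnrnpu, a nuclear scaffold protein, had −0.135 (−0.48 to 0.21). Hnrnpll, the regulator of CD45 exons named above, read 7.58 and 7.30 on the TCDD arrays, against 7.29 and 7.47 on the DMSO arrays. Its arrays interleaved, with a difference of 0.06 (−0.32 to 0.44).

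Hnrnpab was the only one of the 44 genes that was higher on both TCDD arrays, at 11.04 and 10.93, against 10.66 and 10.85 on the DMSO arrays. The difference was 0.23 (−0.09 to 0.55), and the gene, which lies outside the rule for named genes, is named because it alone made up that count. Its 4 other probe sets above the median went the other way, from −0.025 to −0.46. The remaining 9 hnRNP genes had differences from −0.44 (Hnrnph2) to 0.20 (Hnrnpr) in the probe sets used. For Hnrnpdl that was −0.03, while its next brightest set gave −0.44 (−0.79 to −0.09), lower without overlap. Its further sets above the median gave −0.025, −0.055 and −0.17, with overlapping groups. For Hnrnpul2 it was −0.32, while its second set gave 0.44 (−0.16 to 1.04), higher without overlap. Both genes lie outside the rule for named genes.

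The snRNP genes had a family median of −0.205 with TCDD, with 5 of 8 below 0. That median was −0.03 without TCDD 1 and −0.007 without DMSO 2. Snrpb2, which encodes the B″ protein of the U2 snRNP, had the lowest difference of all 44 genes. It read 7.12 and 6.59 on the TCDD arrays, against 7.36 and 7.62 on the DMSO arrays. The groups did not overlap, and the difference was −0.635 (−1.20 to −0.07), a TCDD to DMSO ratio of 0.644, with an unadjusted p of 0.03436 and an adjusted p of 0.9973. A second probe set above the median gave −0.355, and the third, which is dim, gave 0.21.

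Snrpa1, the A′ protein of the same particle and the partner of Snrpb2, lay on the other side of 0. It read 9.35 and 8.71 on the TCDD arrays, against 8.83 and 8.44 on the DMSO arrays, so the groups overlapped, with a difference of 0.395 (−0.29 to 1.08) and 0.315 for its second probe set. Snrpc, which encodes the C protein of the U1 snRNP, read 8.19 and 8.59 on the TCDD arrays, against 8.48 and 8.97 on the DMSO arrays, a difference of −0.335 (−0.93 to 0.26). The 5 Sm genes measured, Snrpb, Snrpd3, Snrpe, Snrpg and Snrpn, ran from −0.32 to 0.215 with a median of −0.205. Snrpn, an imprinted Sm gene known mainly from brain, had a difference of 0.05 (−0.39 to 0.49).

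Of the 9 SF3 genes, Sf3b1 and Sf3a2 had the largest differences between treatments, and none passed the test. Sf3a1 was lower on both TCDD arrays by a small margin, at 6.98 and 6.97, against 7.05 and 7.11 on the DMSO arrays, a difference of −0.105 (−0.37 to 0.16). Sf3a2 had −0.32 (−1.01 to 0.37) and Sf3a3 0.07 (−0.34 to 0.48). Sf3b1, the subunit that holds the branch point helix, read 10.30 and 9.47 on the TCDD arrays, against 10.30 and 10.34 on the DMSO arrays. TCDD 2 alone stood apart, and the difference of −0.435 (−1.19 to 0.32) was −0.85 without TCDD 1 and −0.02 without TCDD 2. Sf3b5 had 0.195 (−0.44 to 0.83) and Sf3b4 −0.11 (−0.41 to 0.19), and the remaining 3 Sf3b genes lay between 0.03 and 0.095.

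Taken as pairs of equal title number, TCDD and DMSO differed in different directions for much of this group, as for much of all genes. The median of TCDD 1 minus DMSO 1 over the 44 genes was 0.04, and that of TCDD 2 minus DMSO 2 was −0.175. For Srsf these were 0.07 and −0.29, for Hnrnp 0.095 and −0.195, for Snrp −0.23 and −0.155, for Sf3a −0.07 and −0.14, and for Sf3b −0.05 and 0.0. In all, 5 genes were above 0 in both pairs, 12 were below 0 in both, and the other 27 were split or at 0 in a pair. Of all 12393 genes, 2801 were above 0 in both pairs and 2505 below 0 in both. Across the 44 genes, the 2 sets of differences had a Pearson correlation of −0.16, against −0.08 across all genes. These are descriptions across genes that share the arrays, not across independent samples.

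The second comparison set the arrays titled with the number 1 against those with the number 2, with a TCDD and a DMSO array on each side. SR protein genes measured mostly higher on number 1. The Sm and SF3a genes measured lower, as did 7287 of all 12393 genes. Of the 44 genes 0 passed the test (limma, lowest adjusted p 0.3189, for Snrpd3). In the same test 1 probe set of 22626 was called (0.00442%), that of Rgs1. Without adjustment, 9 of the 44 genes had a p under 0.05 (20.5%), against 7.46% of all probe sets and 10.6% of the genes above the median level. Of these 9, Srsf5, Srsf6, Hnrnpa1, Hnrnpc, Hnrnpdl and Hnrnpl were higher on number 1, and Snrpd3, Snrpb and Sf3a2 were lower. The count changed with each array left out, as did the count over all probe sets. Probe sets with a marked name (ending in _s_at, _x_at, _a_at or the like) were also left out. The count was then 3 of 36 genes, against 1145 of 15605 probe sets.

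Both number 1 arrays lay above both number 2 arrays for 14 of the 44 genes (31.8%), against 14.0% of all genes and 17.0% of those above the median level. They lay below for 7 (15.9%), against 22.4% of all genes and 20.9% of those above the median level. The 14 were Srsf2, Srsf4, Srsf5, Srsf6, Srsf11, Hnrnpa1, Hnrnpc, Hnrnpdl, Hnrnph1, Hnrnpl, Hnrnpr, Snrpa1, Sf3b3 and Sf3b6. The 7 were Hnrnpul2, Snrpb, Snrpc, Snrpd3, Sf3a2, Sf3a3 and Sf3b5. Of the 9 Srsf genes 0 were among the 7, against the 22.4% of all genes. Of the 3 Sf3a genes 0 were among the 14, against the 14.0% of all genes. Families this small do not let such absences be read as a pattern.

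The median difference over the 44 genes was 0.113, against −0.035 over all genes, with a median size of 0.263, against 0.135 for genes above the median level. By family it was 0.325 for Srsf with 8 of 9 above 0, and 0.102 for Hnrnp with 11 of 18 above 0. It was −0.138 for Snrp with 6 of 8 below 0, −0.25 for Sf3a with 3 of 3 below 0, and 0.185 for Sf3b with 4 of 6 above 0. Over all 12393 genes, 4955 were above 0 and 7287 below.

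**Figure D2:**
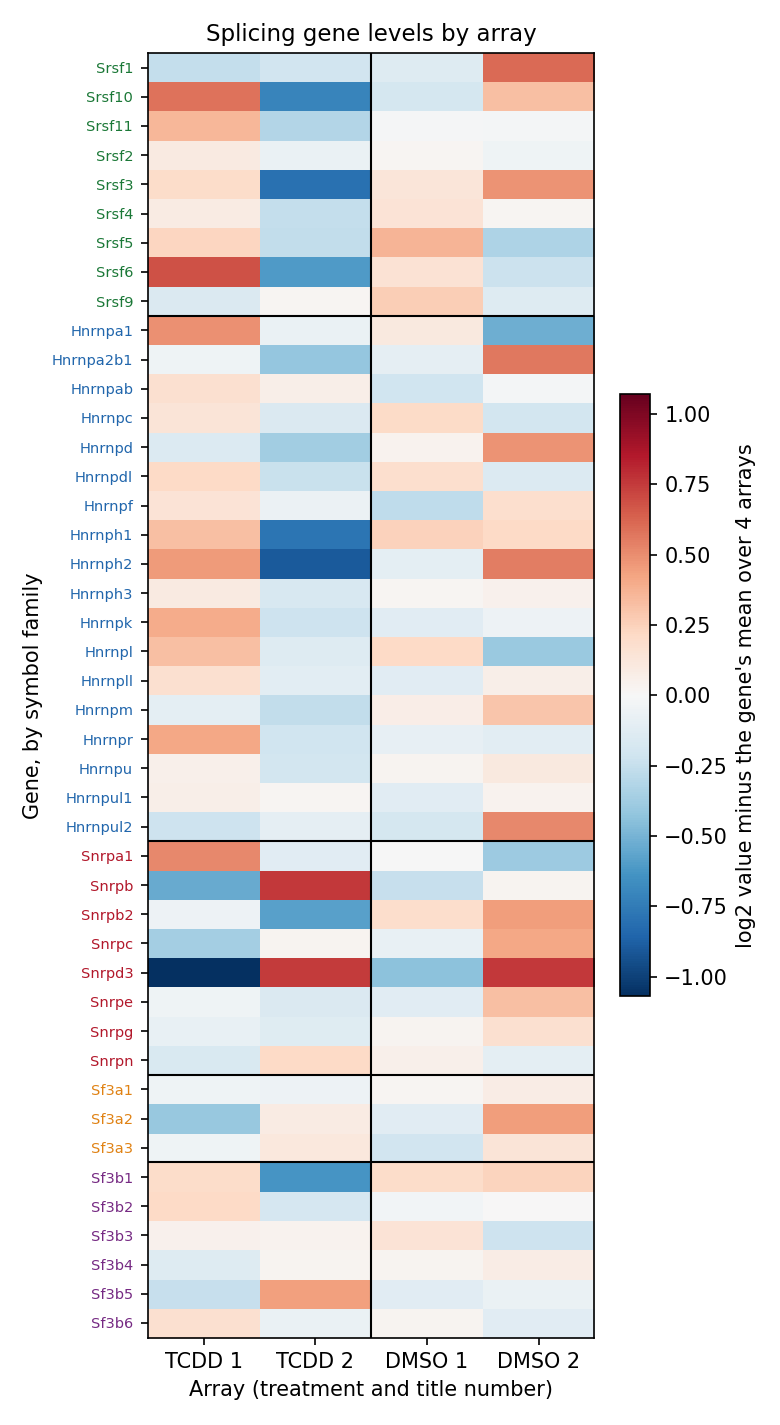
Log2 value of each of the 44 genes on each array minus the gene's mean over the 4 arrays, blue below and red above that mean; rows are genes by symbol family, columns are arrays by treatment and title number. The array TCDD 2 has the lowest median deviation, −0.145, and for the Srsf genes −0.26, while Snrpd3 and Snrpb are blue on both number 1 arrays.

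Srsf5 had the lowest unadjusted p among the SR protein genes in this comparison, 0.002523. It read 10.52 and 10.65 on TCDD 1 and DMSO 1, against 10.03 and 9.96 on TCDD 2 and DMSO 2. The number groups did not overlap, and the treatments were nearly equal within each number. The difference was 0.59 (95% limits 0.33 to 0.85), a ratio of 1.51 between number 1 and number 2, with an adjusted p of 0.3268. Srsf5 had 1 probe set.

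Srsf6, another exon-enhancer binding SR protein, had the highest difference among the 44 genes. It read 10.90 and 10.38 on TCDD 1 and DMSO 1, against 9.62 and 9.99 on TCDD 2 and DMSO 2, a difference of 0.835 (0.24 to 1.43). The 2 other probe sets of Srsf6, both above the median, gave −0.12 and −0.05, so the higher values on number 1 belong to 1 of its 3 probe sets. Srsf3 had a difference of 0.325 (−0.79 to 1.44), with DMSO 2 the highest array. Its other 3 probe sets above the median gave 0.745, 0.62 and 0.56. Srsf1 was the only Srsf gene below 0, at −0.395 (−1.13 to 0.34), with 2 further probe sets at −0.115 and −0.315. Srsf2 was higher on both number 1 arrays by 0.115 (−0.13 to 0.36).

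Among the hnRNP genes, Hnrnpa1, Hnrnph1 and Hnrnpl had the largest differences by number. Hnrnpa1 read 11.68 and 11.30 on TCDD 1 and DMSO 1, against 11.12 and 10.67 on TCDD 2 and DMSO 2, a difference of 0.595 (0.04 to 1.15), and 0.545 for its second probe set. Its number groups did not overlap. Hnrnpl, which binds CA repeats and silences CD45 exons, read 7.63 and 7.52 on TCDD 1 and DMSO 1, against 7.17 and 6.91 on TCDD 2 and DMSO 2. The difference was 0.535 (0.20 to 0.87, adjusted p = 0.5103), and the gene had 1 probe set. Its relative Hnrnpll had 0.05 (−0.32 to 0.42), with overlapping groups.

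The other hnRNP genes of the named list were less separated by number. Hnrnph1 had a difference of 0.565 (−0.31 to 1.44), of which TCDD 1 minus TCDD 2 made 1.10 and DMSO 1 minus DMSO 2 made 0.03. Hnrnpk had 0.275 (−0.25 to 0.80), Hnrnpu 0.085 (−0.26 to 0.43), Hnrnpd −0.105 (−0.88 to 0.67) and Hnrnpa2b1 −0.145 (−1.01 to 0.72). Hnrnpc and Hnrnpdl, named here only as part of the 9 genes above, had 0.345 (0.10 to 0.59) and 0.39 (0.14 to 0.64). Hnrnpc binds U-rich tracts in introns.

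**Figure D3:**
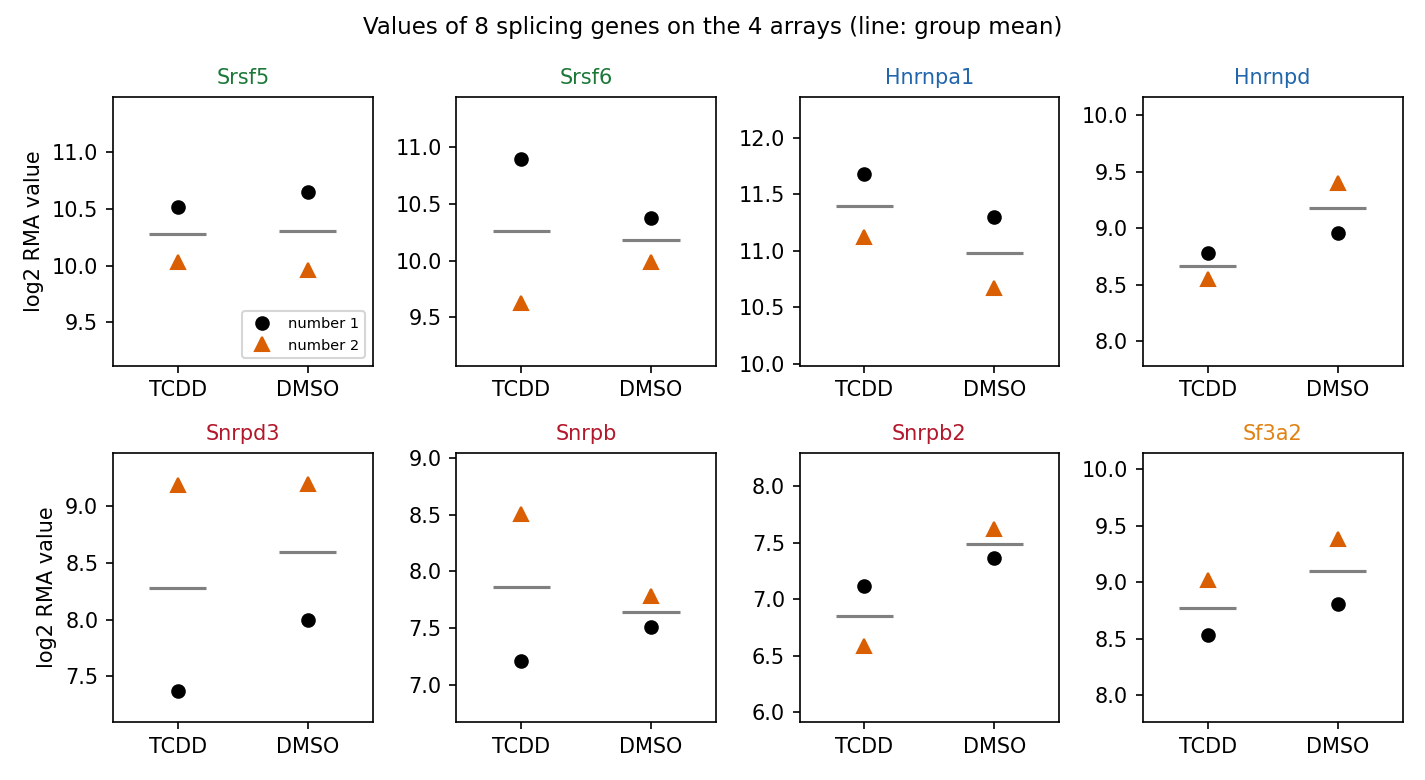
Log2 RMA values of 8 of the genes on each array, circles for number 1 and triangles for number 2, TCDD left of DMSO, with a line at each treatment mean (n = 2); all panels span the same range of log2 units. For Srsf5, Srsf6 and Hnrnpa1 the circles lie above the triangles in both treatments, for Snrpd3, Snrpb and Sf3a2 below, and for Hnrnpd and Snrpb2 the TCDD points lie below the DMSO points.

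The Sm genes lay on the opposite side. All 5 measured had a difference below 0, as had 7287 of all 12393 genes. They ran from −1.51 to −0.045, with a median of −0.165. Snrpd3, the Sm D3 protein, read 7.37 and 8.00 on TCDD 1 and DMSO 1, against 9.19 and 9.20 on TCDD 2 and DMSO 2. This was the largest difference of the 44 genes in either comparison, −1.51 (−2.10 to −0.92), a ratio of 0.351, with an unadjusted p of 0.00136 and an adjusted p of 0.3189. It came from 1 probe set, while the other 2 probe sets of Snrpd3, both above the median, gave −0.12 and −0.165.

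Snrpb, which encodes the B and B′ proteins of the same ring, read 7.21 and 7.51 on TCDD 1 and DMSO 1, against 8.51 and 7.78 on TCDD 2 and DMSO 2. Its difference was −0.785 (−1.50 to −0.07), most of it between the TCDD arrays, and the gene had 1 probe set. Snrpe, Snrpg and Snrpn had −0.165, −0.045 and −0.11, with overlapping groups. A second probe set of Snrpg above the median gave −0.485 (−0.99 to 0.02), lower on both number 1 arrays without overlap. Outside the ring, Snrpc had −0.445 (−0.91 to 0.02), with both number 1 arrays lower. Snrpa1 went the other way, at 9.35 and 8.83 on TCDD 1 and DMSO 1, against 8.71 and 8.44 on TCDD 2 and DMSO 2, a difference of 0.515 (−0.04 to 1.07), and 0.545 for its second probe set.

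The 3 SF3a genes, which join the U2 snRNP before it meets the branch point, were all below 0 by number, as were 7287 of all 12393 genes. Sf3a2 read 8.53 and 8.81 on TCDD 1 and DMSO 1, against 9.02 and 9.38 on TCDD 2 and DMSO 2, a difference of −0.53 (−0.98 to −0.08, adjusted p = 0.6238). A second probe set gave −0.19. Sf3a3 had −0.25 (−0.52 to 0.02) without overlap, and Sf3a1 −0.025 (−0.29 to 0.24). The Sf3b genes were split. Sf3b1 had 0.395 (−0.38 to 1.17), with TCDD 2 alone low, and Sf3b6, whose protein touches the branch point, 0.195 (−0.07 to 0.46). Sf3b5 had −0.365 (−0.87 to 0.14), with both number 1 arrays lower.

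The number difference was also taken within each treatment. The median of TCDD 1 minus TCDD 2 over the 44 genes was 0.245, and that of DMSO 1 minus DMSO 2 was −0.065. These medians were 0.49 and 0.07 for Srsf, 0.285 and −0.12 for Hnrnp, and 0.125 and −0.035 for Sf3b. They were −0.165 and −0.265 for Snrp and −0.16 and −0.34 for Sf3a, the same sign in both treatments. In both treatments 14 of the 44 genes were above 0 and 9 below, against 2392 and 3657 of all 12393 genes. Across the 44 genes the 2 sets of differences had a Pearson correlation of 0.33, against 0.25 across all genes, again as a description across genes on shared arrays. The spread of the 44 gene differences was also widest between the TCDD arrays, with an SD of 0.61, and narrowest between TCDD 1 and DMSO 1, with an SD of 0.30. Over all probe sets these SDs were 0.34 and 0.20.

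**Figure D4:**
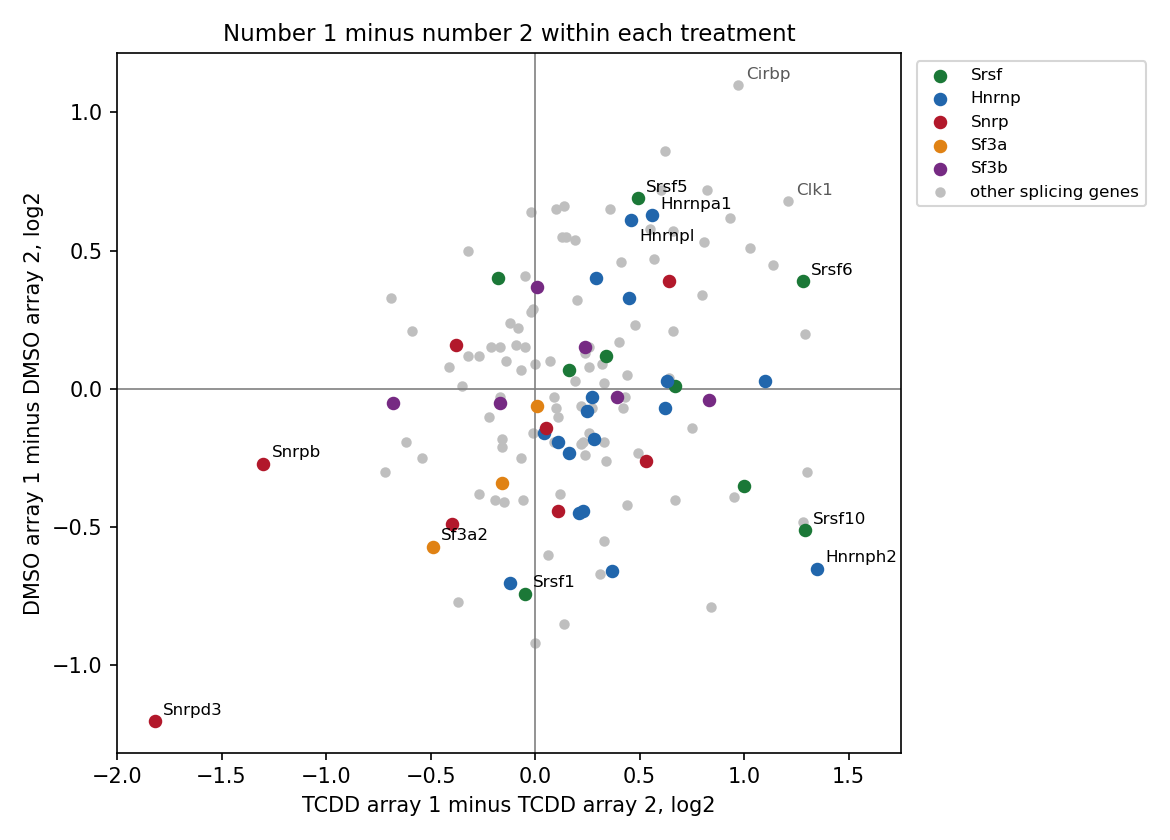
TCDD array 1 minus TCDD array 2 (horizontal, log2) against DMSO array 1 minus DMSO array 2 (vertical, log2) for the 44 genes by family and for 96 other splicing genes in grey. Snrpd3, Snrpb and Sf3a2 lie in the lower left, Srsf5, Srsf6, Hnrnpa1 and Hnrnpl in the upper right, and Srsf10 and Hnrnph2 are above 0 in TCDD and below 0 in DMSO.

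A list of 112 other spliceosome and splicing regulator genes, of which 96 were measured, was set beside the 44. With TCDD their median difference was 0.01, with 9 higher (9.38%, against 12.9% of all genes) and 10 lower (10.4%, against 12.0%) without overlap. Among genes above the median level these shares were 11.1% and 12.8%. At an unadjusted p under 0.05 there were 5 (5.21%), and 0 were called (limma, lowest adjusted p 0.9973). The 5.21% compares with 1.94% of all probe sets and 3.07% of the genes above the median level. Mbnl1, the muscleblind regulator of alternative exons, had the largest difference. It read 10.91 and 10.07 on the TCDD arrays, against 10.81 and 11.60 on the DMSO arrays, a difference of −0.715 (−1.73 to 0.30) with overlapping groups. Nono, a paraspeckle protein, had −0.59 (−1.27 to 0.09), Bud31, a spliceosome protein, 0.515 (−0.17 to 1.20), and Bcas2, a subunit of the PRP19 complex, −0.49 (−0.85 to −0.13). Nono and Bcas2 were lower on both TCDD arrays without overlap, and Bud31 was higher, where TCDD 2 read 10.37 and DMSO 1 read 10.36.

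By number, 29 of the 96 were higher (30.2%, against 14.0% of all genes) and 12 lower (12.5%, against 22.4%) without overlap, with a median of 0.083. Among genes above the median level these shares were 17.0% and 20.9%. At an unadjusted p under 0.05 there were 20 (20.8%), and 0 were called (limma, lowest adjusted p 0.3189). The 20.8% compares with 7.46% of all probe sets and 10.6% of the genes above the median level. Cirbp, a cold-inducible RNA-binding protein, read 7.99 and 7.67 on TCDD 1 and DMSO 1, against 7.02 and 6.57 on TCDD 2 and DMSO 2, a difference of 1.035 (0.51 to 1.56). Clk1, a kinase of SR proteins, read 10.82 and 10.46 on TCDD 1 and DMSO 1, against 9.61 and 9.78 on TCDD 2 and DMSO 2, a difference of 0.945 (0.53 to 1.36, adjusted p = 0.3189). Of the 6 CLK and SRPK kinases 5 were above 0, 4 of them without overlap (against the 14.0% of all genes), and the median of the 6 was 0.472. Clk4 had 0.795 (0.23 to 1.36), and Sfpq, the partner of Nono, 0.775 (0.33 to 1.22). The 5 measured genes of the LSm ring, the Sm-like ring of the U6 snRNP, were all below 0, from −0.395 to −0.10, as were 7287 of all 12393 genes. Lsm2, at −0.10, read 3.88 to 4.05, near the lowest value of the table, 3.09, so its sign carries little.

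Different probe sets of a gene often disagreed, which limits what the family counts can carry. Of the 44 genes 27 had several probe sets with a mean above the median. With TCDD the probe sets of 15 of these had the same sign and those of 12 had opposite signs, and by number 14 had the same sign and 13 opposite signs. The range within a gene was 0.30 in the median with TCDD and 0.34 by number, above the median size of the differences themselves. It was widest for Srsf3 with TCDD, 0.94, and for Snrpd3 by number, 1.39. Probe sets can lie on different isoforms of a gene, and 13 of the 44 in use had names marking several transcripts of 1 gene (_a_at) and 10 had names marking possible cross hybridisation (_s_at or _x_at).

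**Figure D5:**
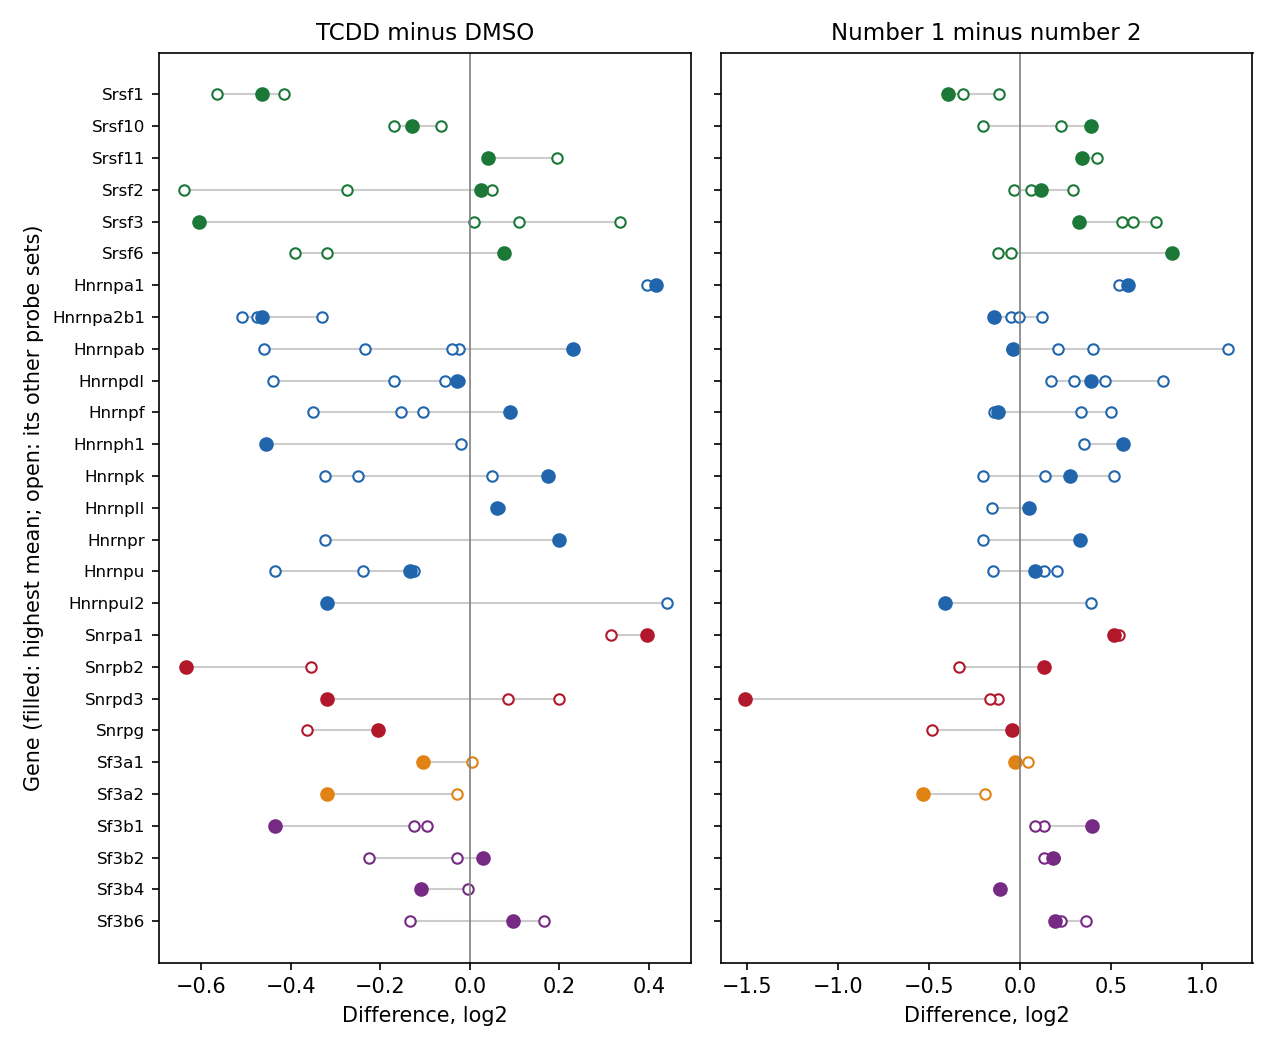
Differences of all probe sets above the median for the 27 genes that have several, TCDD minus DMSO on the left and number 1 minus number 2 on the right, log2; filled points are the probe sets with the highest mean and open points the others. For Srsf1, Hnrnpa2b1 and Snrpa1 all TCDD differences lie on 1 side of 0, while Srsf3 (left) and Hnrnpab (both panels) have points on both sides.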

How the data were processed

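Gene expression was measured on 4 Affymetrix arrays, 2 for TCDD and 2 for DMSO. The deposited table gives log2 values per probe set, which the authors made with RMA per the submitters' processing notes, with no version given. Of 22690 probe sets, 64 controls were left out. Genes were named from the platform annotation, and 20380 probe sets had 1 symbol, 691 several and 1555 none.

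A moderated linear model without covariates (limma 3.58.1, R 4.3.3) was fitted to all 22626 remaining probe sets, with Benjamini-Hochberg adjustment, a threshold of 0.05 and 95% limits from that fit. The step was tested on simulated data. With 2 arrays a side, the smallest two-sided permutation p is 0.3333, and permutation was not used. Depth does not apply to arrays, and their number limits the precision.

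The genes and lists were chosen with earlier results of these data known. Named genes are the 3 with the largest difference per family and comparison, a set of well known members whatever their values, and the 4 largest among the other splicing genes. The alternatives were other normalisations, filters on dim probe sets, variance models, array weights, other probe set choices, updated symbols, a block or treatment term, and each array left out. Promoters are from RefSeq (GRCm38.p6), and no genome was used.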

Additional observations from a re-analysis of the deposited data

Results flagged for a closer look

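The signs of several family medians differed between the 2 pairs of arrays that make up a comparison; these differences between pairs were not tested. With TCDD, TCDD 1 minus DMSO 1 and TCDD 2 minus DMSO 2 had medians of 0.07 and −0.29 for the Srsf genes, 0.095 and −0.195 for the Hnrnp genes, 0.04 and −0.175 for all 44 genes, and 0.02 and −0.065 for the other splicing genes.

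By title number, TCDD 1 minus TCDD 2 and DMSO 1 minus DMSO 2 had medians of 0.285 and −0.12 for the Hnrnp genes, 0.125 and −0.035 for the Sf3b genes, and 0.245 and −0.065 for all 44 genes. The median deviation of the 44 genes from their own means was 0.089 on TCDD 1, −0.145 on TCDD 2, 0.021 on DMSO 1 and 0.055 on DMSO 2. The Snrp and Sf3a medians were below 0 in every pair of both comparisons.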

How the results depend on the processing

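In both comparisons 0 of the 44 genes were called under every alternative run. With all 4 arrays kept, the count at an unadjusted p under 0.05 ranged from 1 to 4 with TCDD (3 in the reported fit). By number it ranged from 3 to 12 (9 in the reported fit). The 1 was seen with a variance trend and robust fitting, beside 425 of 22626 probe sets. It was also seen with the filter at the median, beside 203 of 11316. The 12, for gene means, stood beside 927 of 12393 genes. With TCDD, leaving out probe sets with marked names, which leaves 36 of the 44 genes, moved the Hnrnp median to −0.32 and the Sf3b median to −0.07. It also turned Hnrnpa1 (−0.095), Hnrnpk (−0.325), Snrpb2 (0.21), Srsf3 (0.11) and Bcas2 (0.01). For Hnrnpa1 and Snrpb2 the probe set then used was dim, with means of 4.158 and 4.635, below the median over all probe sets. Gene means over probe sets turned Hnrnpk (−0.088) and Srsf2 (−0.21), and a further quantile normalisation turned Srsf5 (0.003). By number, the count over all probe sets was 11 with a variance trend and robust fitting, 7 for gene means and 0 with a treatment term. Without marked probe sets the medians were 0.173 for Srsf, −0.445 for Snrp and −0.138 for Sf3a. Hnrnpa1 (−0.095), Hnrnpa2b1 (0.12), Hnrnpll (−0.155) and Srsf6 (−0.12) changed sign, Hnrnpa1 again in its dim probe set. The Sf3b median was 0.225 with centred arrays, 0.14 after quantile normalisation and 0.143 for gene means, and centring gave the other splicing genes 0.123. Hnrnpll (−0.052, gene means) and Sf3a1 (0.01, gene means, and 0.015, centred) also turned. Centring shifts every difference by number by the same amount, and it moved the median over all genes from −0.035 to 0.005. The 7287 of 12393 genes below 0 by number were counted without centring. The cause of the other changes was not tested beyond the change of probe sets itself.

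Each array was left out in turn, and the ranges that follow are of results whose sign or size changed. With TCDD the medians ranged from −0.34 to 0.105 for Srsf, −0.147 to 0.033 for all 44 genes, −0.182 to 0.163 for Hnrnp, −0.35 to −0.007 for Snrp, −0.032 to 0.093 for Sf3b and −0.095 to 0.043 for the other splicing genes. The differences ranged from −1.005 to 0.095 for Hnrnph1, −0.135 to 0.485 for Hnrnpk, −0.08 to 0.20 for Hnrnpll, −0.10 to 0.24 for Sf3a3, −0.145 to 0.535 for Sf3b5, −0.435 to 0.865 for Snrpb, −0.14 to 0.24 for Snrpn, −0.055 to 0.105 for Srsf2 and −0.375 to 0.315 for Srsf5. By number 0 probe sets were called without any 1 array, so the Rgs1 call was lost each time. The medians ranged from 0.105 to 0.485 for Srsf, −0.017 to 0.323 for Hnrnp, −0.392 to −0.09 for Snrp, −0.33 to −0.17 for Sf3a, 0.025 to 0.203 for Sf3b, −0.052 to 0.233 for all 44 genes and 0.073 to 0.155 for the other splicing genes. The differences ranged from −0.635 to 0.345 for Hnrnpa2b1, −0.53 to 0.32 for Hnrnpd, −0.095 to 0.195 for Hnrnpll, −0.065 to 0.235 for Hnrnpu, −0.095 to 0.045 for Sf3a1, −0.04 to 0.83 for Sf3b1, −0.27 to 0.05 for Snrpn, −0.80 to 0.01 for Srsf1 and −0.315 to 0.965 for Srsf3.

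The title number as a replicate block left 0 of the 44 genes called with TCDD (4 at an unadjusted p under 0.05, 612 over all probe sets). The labels do not say that the number pairs arrays. Deviations from the group means correlated at 0.234 between arrays of equal number, with only 2 pairs. A left-out array leaves 1 array in its group, which is assumed to vary like the other.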

Other observations

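Among the other splicing genes, 2 regulators of alternative exons that the report does not name were separated by title number; they were chosen after their values were seen, and neither passed the test. Ptbp1, which represses exons next to pyrimidine-rich tracts, read 7.42 and 7.47 on TCDD 1 and DMSO 1, against 6.60 and 6.75 on TCDD 2 and DMSO 2. The difference was 0.77 (95% limits 0.50 to 1.04, unadjusted p = 0.000857, adjusted p = 0.3189 by limma). Tra2b, an SR-like activator of exons, read 10.75 and 10.40 on TCDD 1 and DMSO 1, against 9.72 and 9.89 on TCDD 2 and DMSO 2, a difference of 0.77 (0.36 to 1.18, adjusted p = 0.4081). In the probe set used for each gene, the number 1 arrays lay above the number 2 arrays in each treatment, and the TCDD and DMSO groups overlapped. Each gene had 2 probe sets, and only the brightest is described here.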
